A study of Mus musculus with 16 samples.

Results

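This comparison sets the 2-mutation hairpin against the empty vector in mouse primary forebrain neuronal cultures. It takes 8 of the 16 libraries of the study, 4 with each vector, and covers the 19479 of 55335 annotated genes that passed a filter on low counts. All cultures were perinatal in origin and received a lentiviral vector, so transduction is shared by every group. The empty-vector group carried no hairpin, the unmutated group carried a short hairpin RNA, and the other two groups carried that hairpin with 2 or with 5 point mutations. Strain, age in days, viral dose, time after transduction, the promoter of the hairpin, its sequence and its intended target are not given in the sources used here. Total RNA was depleted of ribosomal RNA and sequenced from directional libraries. Each group had 4 libraries, and the labels do not say whether these were grown as separate cultures. The p-values therefore reflect the spread among these libraries and no more.

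A short hairpin RNA made in the nucleus is exported, cut by Dicer into a short duplex, and loaded into an Argonaute protein, which then binds messenger RNAs by base pairing. Extensive pairing allows the Argonaute protein AGO2 to cut the transcript, whereas pairing of the guide's seed, a short stretch near its 5′ end, to a 3′ untranslated region (3′ UTR) lowers transcripts in the manner of a microRNA. Neurons rely on their own microRNAs through the same proteins, and mutated hairpins are commonly used as controls for sequence-specific effects.

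Levels are given as CPM, the counts scaled to a common library size with TMM factors, mean ± SD over 4 libraries, and the values of single libraries are given in the order of replicates 1 to 4. Differences are log2 fold changes ± SE from edgeR's quasi-likelihood test, 2-sided, and a gene is called higher or lower at a Benjamini-Hochberg adjusted p below 0.05. Of the 19479 genes, 63.3% were called between the 2-mutation hairpin and the empty vector, 32.5% higher and 30.8% lower, which is the background for every count below. The 4 libraries of the groups did not overlap for 60.1% of the genes, 31.5% higher and 28.6% lower with the 2-mutation hairpin. Falls reached further than rises: 486 genes fell and 216 rose by more than 4-fold. Among protein-coding genes 40.0% were higher and 32.4% lower, while among antisense transcripts 11.6% were higher and 29.8% lower. Calls also depended on expression. In 5 bands of equal size by mean level, the top band had 44.2% higher and 36.6% lower, the next 49.9 and 30.9%, and the lowest 14.7 and 20.7%, so lists of well expressed genes are to be read against the upper bands. The genes were also split into 5 bands by genomic span. In the band with the longest spans 43.0% were lower and 30.8% higher, against 23.2 and 14.2% in the band with the shortest. Among the 2-mutation libraries total counts ran from 41618901 to 49824569, against 33795369 to 46187568 with the empty vector. The locus Gm26917, which is known to collect ribosomal RNA reads, took 10.9 to 11.5% of the counts with the 2-mutation hairpin and 5.85 to 6.34% with the empty vector. Without it and the like locus Gm42418 in the counts, 12211 genes were called, 5886 higher and 6325 lower. The summed level of 20 pan-neuronal markers was 11652 to 12532 CPM with the 2-mutation hairpin and 11694 to 12451 CPM with the empty vector. Single markers did change: 8 of the 20 were called higher and 10 lower, with log2 fold changes from −0.95 to 2.73.

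Rtn4, which encodes the reticulon protein Nogo, an inhibitor of axon growth, was the transcript furthest below the empty vector with the unmutated hairpin, and it was still much reduced with the 2-mutation hairpin. Rtn4 (ENSMUSG00000020458.16, GRCm38 chr11:29692947-29744331, plus strand) measured 842, 837, 881 and 891 CPM in the empty-vector libraries and 130, 126, 128 and 122 CPM in the 2-mutation libraries. The groups did not overlap and the spread within each was small. The log2 fold change was −2.77 ± 0.04 (edgeR adjusted p = 3.39e-22), a 6.82-fold lower mean. Set against the unmutated hairpin, at 30.5 ± 0.692 CPM, Rtn4 was higher by 2.05 on the log2 scale, and against the 5-mutation hairpin, at 828 ± 37.2 CPM, it was lower (log2 fold change −2.71). Exons of Eml6 on the other strand overlap Rtn4, and whether the counting used strand is not given in the sources used here. The same limit holds for Hmgcs1, Lss, Idi1, Fdft1, Cyp51, Acss2, Elovl6, Gapdh, Neurod1, Vcl, Tuba1b, Shank1, Shank3, Dlgap1, Kcnh3, Kcnk3, Cacna2d2, Erc2, Cnot7, Dgcr8, Dusp5, Ei24, Bcl2, Npc1, Tagln and Cab39l, which also have exons of a gene on the other strand across theirs. Rtn4r, the gene of the Nogo receptor, fell from 56.1 to 28.6 CPM (log2 fold change −0.97, edgeR adjusted p = 1.1e-12).

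Transcripts with a particular short word in the 3′ UTR were lower with the 2-mutation hairpin. Every 7-base word found in the 3′ UTRs of at least 100 genes was ranked by how far the genes that hold it lay from the others, in a regression of log2 fold change on the presence of the word with terms for UTR length and GC content. Of 16026 words over 14295 genes, the lowest was ATGACAA, present in 1674 genes (11.7% of the UTRs). Its coefficient was −0.40, so that genes with the word were lower by that much on the log2 scale than genes without it at the same UTR length and GC content. For the unmutated and 5-mutation hairpins against the same empty-vector libraries, in comparisons that called 40.3 and 54.9% of all genes, the coefficient of this word was −0.02 and −0.01. The lowest words in those comparisons were different. The first-ranked words of the 3 hairpins, each the sequence in the 3′ UTR, are shown because the counts of bases by which they differ can be set beside the point mutations named in the labels.

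Unmutated hairpin: ATGAAAC
2-mutation hairpin: ATGACAA
5-mutation hairpin: CTAACCA

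The words of the unmutated and 2-mutation hairpins differ at 2 bases, A5C and C7A, with positions counted from 1 at the 5′ end of the UTR word and the unmutated word's base first. The words of the unmutated and 5-mutation hairpins differ at 5 bases (A1C, G3A, A5C, A6C and C7A). These counts equal the numbers of point mutations in the labels, although the hairpin sequences were not used here. The RNA stretches complementary to the words are UUGUCAU for the 2-mutation hairpin, GUUUCAU for the unmutated hairpin and UGGUUAG for the 5-mutation hairpin. With the 2-mutation hairpin, the words of the other hairpins had coefficients of −0.04 (ATGAAAC) and −0.01 (CTAACCA). The words ranked next overlap ATGACAA by shifts of a base or more, the second being TGACAAA with a coefficient of −0.31. It was followed by AATGACA (−0.27), TATGACA (−0.31), TGACAAT (−0.26) and GACAAAA (−0.23).

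The same regression on log2 CPM, taken relative to each gene's mean over the libraries, gave a score of ATGACAA in each library. The scores were 0.113, 0.107, 0.105 and 0.106 with the empty vector and −0.293, −0.290, −0.278 and −0.308 with the 2-mutation hairpin. The groups lay far apart relative to the spread within them. Of all words, 54.5% had lower scores without overlap in the 2-mutation libraries, so the lack of overlap alone does not single out this word, whose rank rests on its size. At the other end of the ranking the highest word, GCTGGCC, had a coefficient of only 0.09.

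The difference grew with the number of matches. The 12621 genes with no match had a median log2 fold change of 0.11, and 29.2% of them were lower and 42.8% higher. With 1 match (1452 genes) the median was −0.28 and 54.2% were lower. With 2 matches (192 genes) it was −0.69 and 69.3% were lower, and with 3 or more (30 genes) it was −0.80 and 76.7% were lower. For the unmutated hairpin the medians of the same 4 classes were 0.03, −0.004, −0.05 and −0.06, and for the 5-mutation hairpin 0.02, −0.01, −0.09 and −0.27, against the same empty-vector libraries. Median UTR length also rose over these classes, at 1250, 2558.5, 3818.5 and 4812 nucleotides, and their medians were not adjusted for it. Long UTRs hold more words, so the genes were also split into 5 bands of UTR length, with any match set against none. In every band the genes with a match were lower more often (52.0 to 59.1%) than the genes without it (22.4 to 39.1%). The word was picked by these same fold changes, so these contrasts for the 2-mutation hairpin are a description only.

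**Figure D1:**
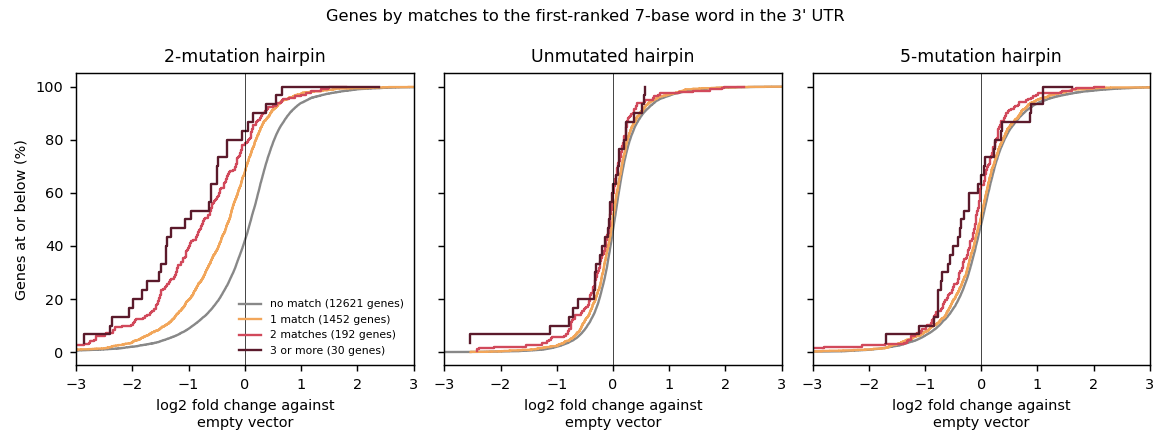
Cumulative share of genes (vertical axis) by log2 fold change against the empty vector (horizontal axis), for genes with 0, 1, 2 and 3 or more matches of ATGACAA in the 3′ UTR, in 1 panel for each hairpin. With the 2-mutation hairpin the curves shift to the left with each match, from a median of 0.11 to −0.80. With the unmutated hairpin they lie on each other, with medians from 0.03 to −0.06. With the 5-mutation hairpin the medians run from 0.02 to −0.27.

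The bases beside the word and its place in the transcript went with different medians. The 618 genes with ATGACAAA had a median log2 fold change of −0.46 and 64.2% of them were lower. The 352 genes in which the word had an A or T before it and an A after it had a median of −0.56, and 68.2% were lower. A match confined to the coding sequence (1914 genes) went with a median of −0.07 and 41.6% lower, against 0.14 and 27.2% for the 10121 genes with the word in neither part. The length of the coding sequence was not taken into account in that comparison. Read from the other side, the word was present in 25.2% of the genes that fell by more than 2-fold (370 of 1467), in 9.88% of the genes not called, and in 5.64% of those that rose by more than 2-fold (45 of 798). Among genes that fell by more than 4-fold it was in 22.2%. These shares are a description only, since the word was picked by the same fold changes. They were also not adjusted for UTR length, and the median UTR of the first 3 classes was 1678, 1190 and 1049 nucleotides. The word of the unmutated hairpin, ATGAAAC, was in 16.9, 10.3 and 12.0% of those classes. None of the 10 annotated Rtn4 transcripts holds ATGACAA anywhere along its length, and 3 of them hold the word of the unmutated hairpin at some position.

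The 6 lowest genes with the word show where it lies. In these stretches, GRCm38 and read on the strand of the gene, the capitals mark the word. Met, Hapln1 and Gad2 are on the plus strand and Rxfp3, Dynlt3 and Gpr139 on the minus strand. Each stretch is part of an annotated 3′ UTR (GENCODE vM21).

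Met, chr6:17572482-17572511: attgtacatagATGACAAtaggaaattgtt
Hapln1, chr13:89609111-89609140: atttacattacATGACAAaaaccatcaaat
Hapln1, chr13:89609821-89609850: gtacttaagccATGACAAtgcatgaagtta
Rxfp3, chr15:11034115-11034144: tgtatgtcactATGACAAaagctaaaagtt
Dynlt3, chrX:9655868-9655897: taatgtgctagATGACAAgtgtgcaatatg
Dynlt3, chrX:9654518-9654547: gaataactctaATGACAAgaatgcaaagat
Gad2, chr2:22691639-22691668: gagacctctgtATGACAAgaatggcttcct
Gpr139, chr7:119143743-119143772: ctggctgcagcATGACAAcatggggaaacg

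Dynlt3, a dynein light chain gene with 2 of these sites, measured 78.6, 76.1, 79.0 and 74.3 CPM with the empty vector and 6.68, 6.53, 7.95 and 6.74 CPM with the 2-mutation hairpin. Every 2-mutation library lay more than 4-fold below every empty-vector library. The log2 fold change was −3.46 ± 0.06 (edgeR adjusted p = 1.85e-21), and the unmutated and 5-mutation hairpins left Dynlt3 at 99.8 and 91.8 CPM. Met, the receptor gene of hepatocyte growth factor, measured 263, 217, 281 and 271 CPM with the empty vector and 18.0, 13.6, 16.7 and 17.5 CPM with the 2-mutation hairpin. All 4 libraries of the hairpin were low, and the log2 fold change was −3.97 ± 0.14 (edgeR adjusted p = 3.03e-12). Set against the unmutated and 5-mutation hairpins, the log2 fold change of Met was smaller, −2.14 and −2.59, so those groups also lay below the empty vector. Gad2, which makes the inhibitory transmitter GABA, measured 156, 191, 158 and 176 CPM with the empty vector and 9.94, 28.3, 14.9 and 15.3 CPM with the 2-mutation hairpin. Replicate 2 was the highest of the low libraries, and the groups did not overlap (log2 fold change −3.32 ± 0.39, edgeR adjusted p = 6.23e-06). Set against the unmutated and 5-mutation hairpins, the log2 fold change of Gad2 was only −1.16 and −1.25. Most of its fall against the empty vector was thus shared by the other hairpins. In bulk RNA, fewer cells of a type and less RNA in each cell cannot be told apart, and this holds for Gad2 and the other markers of single neuron types below.

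Genes with and without a match of the word were among the furthest reduced. The 20 lowest genes chosen by the size of their log2 fold change held 7 with the word (35%), and the 20 highest held 3 (15%). Over all genes with a UTR the share was 11.7%. The word of the unmutated hairpin, ATGAAAC, was in 30% of the same 20 lowest genes and 0% of the 20 highest, against 12.1% over all. These few genes therefore do not single out ATGACAA. Rragd, which encodes a GTPase that signals amino acid supply to mTORC1 at the lysosome and which has ATGACAA, measured 131, 153, 147 and 141 CPM with the empty vector. With the 2-mutation hairpin Rragd measured 16.6, 16.8, 16.6 and 16.1 CPM, and no library came near the empty-vector range (log2 fold change −3.12 ± 0.06, edgeR adjusted p = 9.79e-21). The unmutated and 5-mutation hairpins left Rragd at 108 and 163 CPM, and the 2-mutation hairpin was lower than each (log2 fold change −2.71 and −3.31).

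**Figure D2:**
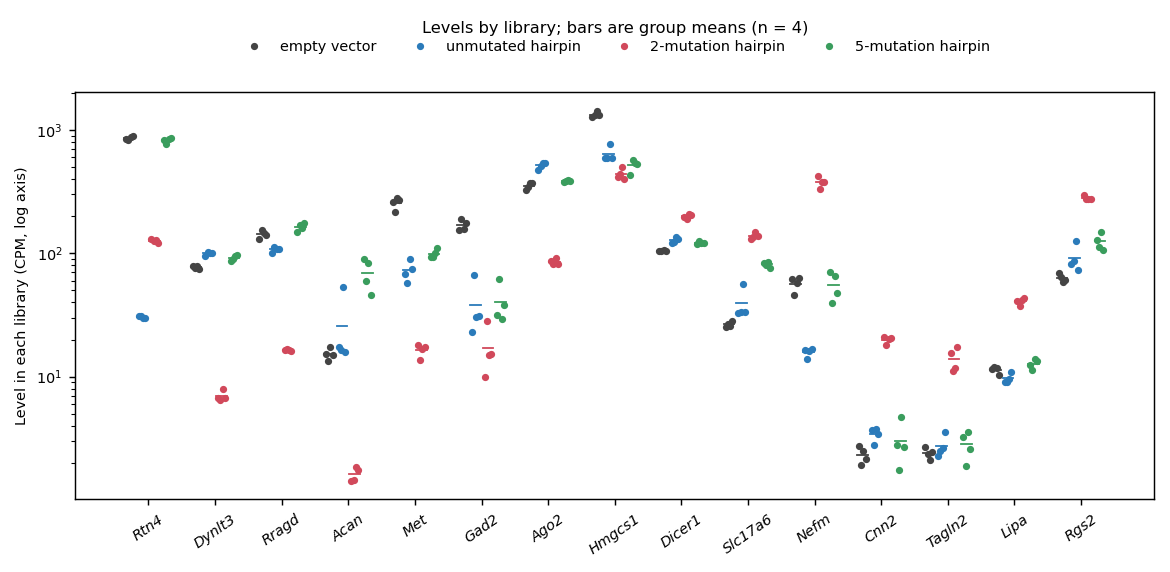
CPM of 15 genes on a log axis (vertical) in each library of the 4 groups (horizontal), with bars at the group means. Rragd lies between 16.1 and 16.8 CPM in the 2-mutation libraries and between 131 and 153 CPM in the empty-vector libraries, and Nefm and Cnn2 stand higher in the 2-mutation libraries than in the others.

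Other genes with the greatest falls had varied known roles. Slc6a7, which encodes a transporter of proline in brain, went from 30.1 to 1.69 CPM (log2 fold change −4.16 ± 0.08, edgeR adjusted p = 9.79e-21). Grp (gastrin releasing peptide) went from 11.1 to 0.351 CPM, Nos1 (neuronal nitric oxide synthase) from 119 to 7.06 CPM, Hk2 (hexokinase 2) from 28.8 to 2.14 CPM, and Mtfp1, a mitochondrial fission gene, from 29.9 to 2.46 CPM. Gm26995 overlaps Nos1 on the opposite strand. Hapln1 and Acan, the link protein and the aggrecan core protein of perineuronal nets, went from 27.4 to 1.90 CPM and from 15.4 to 1.62 CPM. Aggrecan was at 69.9 CPM with the 5-mutation hairpin, so the mutated hairpins differed in it by more than either did from the empty vector. Calb2 (calretinin), Fgf11, Extl1, Rreb1, Plcxd3 and Cab39l had log2 fold changes between −3.17 and −2.99.

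The genes with the greatest rises are described next. Nefm, the medium neurofilament subunit of axons, measured 61.8, 45.6, 57.5 and 62.9 CPM with the empty vector and 423, 331, 377 and 380 CPM with the 2-mutation hairpin. The groups did not overlap, and the log2 fold change was 2.73 ± 0.17 (edgeR adjusted p = 5.12e-09). With the unmutated hairpin Nefm was at 15.8 CPM, below the empty vector. Nefl lies on the opposite strand of Nefm with overlapping exons. Cnn2, the gene of an actin-binding calponin, measured 2.76, 1.94, 2.47 and 2.16 CPM with the empty vector and 20.9, 18.2, 20.2 and 20.5 CPM with the 2-mutation hairpin, where all 4 libraries were high (log2 fold change 3.10 ± 0.20, edgeR adjusted p = 3.17e-10). Slc17a6, the vesicular glutamate transporter VGLUT2, measured 25.3, 26.6, 25.9 and 28.2 CPM with the empty vector and 129, 136, 148 and 139 CPM with the 2-mutation hairpin. Its groups were again far apart (log2 fold change 2.38 ± 0.15, edgeR adjusted p = 2.72e-09), although its UTR holds 3 matches of ATGACAA. Flnc and Tagln2, which encode further actin-binding proteins, Rgs13 and Rgs2, which encode regulators of G-protein signalling, and Gtse1, a gene of mitosis, rose by 2.16 to 3.16 on the log2 scale. Man2b2, a lysosomal mannosidase gene, went from 8.27 to 45.3 CPM, and Atl3, which shapes the endoplasmic reticulum, from 42.6 to 174 CPM.

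The 2-mutation hairpin was also set against the other hairpins. It differed from the unmutated hairpin in 62.7% of the genes (31.5% higher, 31.2% lower) and from the 5-mutation hairpin in 65.9% (32.3% higher, 33.6% lower). Genes called higher than in all 3 other groups made up 19.7% and genes called lower than in all 3 made up 17.8%. By the size of the smallest difference, the genes furthest above all 3 groups included Nefm, Cnn2, Tagln2, Rgs13, Snx8, Lgals3bp and Lipa, the lysosomal acid lipase. Lipa measured 11.5, 11.9, 11.7 and 10.3 CPM with the empty vector and 40.9, 37.7, 41.6 and 43.3 CPM with the 2-mutation hairpin (log2 fold change 1.85 ± 0.07), with no overlap. The genes furthest below all 3 groups included Grp, Slc6a7, Dynlt3, Acan, Nos1, Rragd and Hapln1. Of the genes called lower than in all 3 groups that had a UTR, 23.9% held ATGACAA (673 of 2811), against 11.7% of all genes with a UTR. The word of the unmutated hairpin, ATGAAAC, was in 13.8% of them, against 12.1% of all. ATGACAA was picked by the 2-mutation against empty-vector fold changes that also enter these calls, so its share is a description only.

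Genes of the proteins that carry out RNA interference went both ways. Of 25 tested genes of small RNA processing and the Argonaute complex, 9 were higher and 11 lower, and the background over all genes was 32.5 and 30.8%. Ago2, the Argonaute that can cut its target, measured 329, 343, 368 and 374 CPM with the empty vector and 86.7, 81.8, 92.0 and 81.3 CPM with the 2-mutation hairpin. The 2-mutation libraries were all low, and the log2 fold change was −2.05 ± 0.05 (edgeR adjusted p = 1.19e-18). Ago2 was at 516 CPM with the unmutated hairpin and 386 CPM with the 5-mutation hairpin. Chrac1 overlaps Ago2 on the opposite strand, and the 3′ UTR of Ago2 holds 1 match of ATGACAA. Ago3 went from 57.4 to 28.4 CPM (log2 fold change −1.02), Ago4 had a log2 fold change of −0.34, while Ago1 was at −0.04 (adjusted p = 0.419, edgeR), not called. Ago3, Dis3l2, which degrades uridylated RNA, and the GW182 gene Tnrc6b also hold the word.

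Dicer1, the nuclease that cuts hairpins, measured 104, 104, 107 and 105 CPM with the empty vector and 196, 191, 207 and 204 CPM with the 2-mutation hairpin. All 4 hairpin libraries were higher than all 4 of the empty vector (log2 fold change 0.93). The Dicer partners Tarbp2 and Prkra each rose by 0.81 on the log2 scale, and Drosha, which makes the first cut in the nucleus, fell by 0.40. The GW182 proteins link Argonaute to the decay machinery, and their genes went different ways: Tnrc6a rose by 1.12, Tnrc6b fell by 1.16 and Tnrc6c fell by 0.37 on the log2 scale. Xpo5 (the export factor of hairpins), Dgcr8, Tut4 and Lin28b were not called, and Lin28a was too low to test. Of the 25 genes, 7 were higher and 9 lower than in all 3 other groups. Among 21 deadenylation and decay genes, 11 were higher and 7 lower, and the deadenylase genes Cnot7, Cnot8 and Cnot6l had log2 fold changes between −0.80 and −0.71.

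The cells' own microRNAs were not measured here, but the levels of transcripts with matches to their seeds were. For each of 30 microRNA families, the score per library is the regression coefficient of a seed match in the 3′ UTR, computed as for the words above. Of these scores 9 (30%) were higher and 13 (43.3%) lower in all 2-mutation libraries than in all empty-vector libraries, against 17.3 and 54.5% of all words. The sequences with the greatest differences each way, from RefSeq, are printed 5′ to 3′ with the seed (bases 2 to 8) in capitals.

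let-7a-5p: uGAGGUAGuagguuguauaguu
miR-155-5p: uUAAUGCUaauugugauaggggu
miR-92a-3p: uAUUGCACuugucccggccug
miR-129-5p: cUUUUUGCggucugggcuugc
miR-34a-5p: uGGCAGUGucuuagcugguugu

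Genes with a let-7 match (1712) scored −0.04 ± 0.01 with the empty vector and 0.04 ± 0.01 with the 2-mutation hairpin, the greatest rise of the 30 families and rank 11 from the top of 16026 words. It was not particular to this hairpin. On fold changes against the empty vector, the coefficient of the match was 0.0766 with the 2-mutation, 0.0693 with the 5-mutation and 0.0159 with the unmutated hairpin. With the 5-mutation hairpin the match ranked 6 from the top. The rise of 0.0749 on the log2 scale was small beside the 0.40 of ATGACAA. Without the terms for UTR length and GC content it was 0.00805 and the libraries overlapped. The greatest falls were in miR-155 (−0.05), miR-92 (−0.05), miR-129 (−0.04) and miR-34 (−0.04). With the 5-mutation hairpin the coefficients of these matches, in the same order, were −0.0131, 0.00103, −0.00938 and −0.0392. With the unmutated hairpin they were −0.0218, −0.0276, −0.00916 and −0.0134, so part of these falls was shared. The families with the greatest falls were among 8 of the 13 that were lower without overlap in each of 3 other ways of computing the score. Of the 9 higher families 0 were higher in each. The way without the terms for UTR length and GC content left 0 families higher, so it alone sets that count. It gives no contrast between rises and falls. In the other ways, the 8-base match and UTRs of at least 300 nucleotides, all of the 9 but miR-132 were higher in both. Transcripts that host microRNAs were lower in 19 and higher in 5 of 31, with a median log2 fold change of −0.36. Mir124a-1hg, a host of the neuronal miR-124, dropped to 36.9 CPM from 78.3 CPM (log2 fold change −1.09, edgeR adjusted p = 4.64e-09). Of 23 genes known to be repressed by miR-124 in neurons, 11 were higher and 7 lower, against 40.0 and 32.4% of protein-coding genes.

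Most genes of cholesterol synthesis were lower. All 8 genes of the mevalonate part fell, with a median log2 fold change of −1.13 against −0.01 over all genes, and 9 of 12 genes from squalene to cholesterol fell, with a median of −0.92. Neurons and glia make sterols from acetyl-CoA through mevalonate, under control of the transcription factor SREBP2. Hmgcs1, which makes HMG-CoA, measured 1273, 1314, 1431 and 1321 CPM with the empty vector and 416, 439, 499 and 401 CPM with the 2-mutation hairpin. The groups were far apart (log2 fold change −1.61 ± 0.10, edgeR adjusted p = 3.06e-10). Lss, which closes the sterol ring, measured 74.4, 73.2, 81.2 and 69.0 CPM with the empty vector and 13.6, 15.5, 15.3 and 12.9 CPM with the 2-mutation hairpin. Every hairpin library was below every empty-vector library, with a log2 fold change of −2.38 ± 0.08 and an adjusted p of 2.23e-16 by edgeR.

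The remaining sterol enzymes spread widely. Fdps (−3.02), Idi1 (−2.50), Fdft1 (−1.98) and Nsdhl (−1.88) had the greatest log2 falls after Lss or beyond it, although Fdps was low throughout, at 8.10 CPM in the empty-vector and 1.0 CPM in the 2-mutation group. Pmvk was at −0.25 (edgeR adjusted p = 0.026), a call lost without 2-mutation replicate 2 or 4 or empty-vector replicate 1 or 3 (adjusted p between 0.0559 and 0.112). Cyp51 (0.04) and Dhcr7 (−0.02), later enzymes of the pathway, were among the 3 genes not called. Of the 20 genes only Idi1 and Fdft1 hold ATGACAA in the 3′ UTR. The comparisons of the other hairpins with the same empty-vector libraries gave medians of −0.73 and −1.14 for the mevalonate genes and −0.56 and −1.09 for the later genes, with the unmutated hairpin first. Against the unmutated hairpin directly, the 2-mutation hairpin was lower in 5 and higher in 1 of the 8 mevalonate genes, and against the 5-mutation hairpin lower in 6 and higher in 2.

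**Figure D3:**
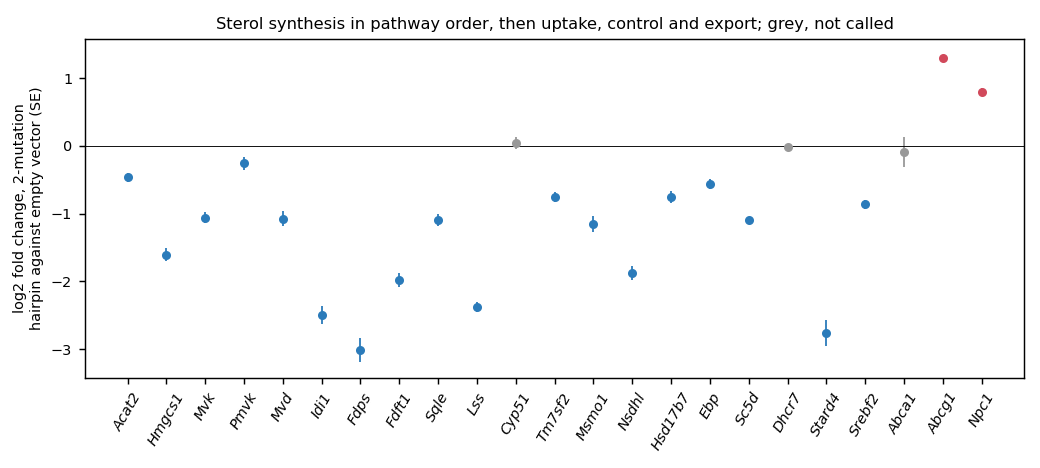
Log2 fold change (vertical axis, with SE bars) of cholesterol synthesis genes in the order of the pathway and of genes of sterol uptake, control and export (horizontal axis), for the 2-mutation hairpin against the empty vector. The genes of the mevalonate part shown lie below 0, down to −3.02 for Fdps, and Cyp51 and Dhcr7 lie at 0.04 and −0.02.

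Genes around the pathway were also examined. Of 12 genes of sterol sensing and uptake, 8 fell and 3 rose, among them the sterol carrier gene Stard4 (115 to 16.9 CPM, log2 fold change −2.77). Mbtps2, the protease that releases SREBP from the membrane, rose from 61.3 to 138 CPM (log2 fold change 1.17). Of 10 genes of sterol export and trafficking, 5 rose and 1 fell (2 fell without empty-vector replicate 3). Abcg1, a cholesterol exporter, measured 61.7, 66.6, 68.9 and 62.6 CPM with the empty vector and 150, 168, 161 and 160 CPM with the 2-mutation hairpin, without overlap (log2 fold change 1.30 ± 0.05, edgeR adjusted p = 1.89e-16). Fatty acid synthesis genes were lower in 9 and higher in 1 of 13, with Elovl6 at −1.52, Acss2 at −1.14 and Acly at −0.72. The sterol genes are also active in astrocytes, and the astrocyte markers given further down were lower as well. Their part in the sterol result was not tested.

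Voltage-gated channels of neurons were mostly lower. Of 9 sodium channel genes 7 fell and 1 rose, of 32 potassium channel genes 24 fell and 4 rose, and of 21 calcium channel genes 16 fell and 4 rose, with median log2 fold changes of −0.84, −0.64 and −0.47. Scn3b, an auxiliary subunit of sodium channels, measured 244, 249, 259 and 252 CPM with the empty vector and 36.2, 36.4, 36.1 and 37.0 CPM with the 2-mutation hairpin. Replicates differed little and the groups were far apart (log2 fold change −2.78 ± 0.04, edgeR adjusted p = 1.86e-22). Scn2a, a pore-forming subunit, fell by 1.04 on the log2 scale. Kcnh3, a potassium channel of forebrain neurons, fell from 70.3 ± 2.40 to 11.7 ± 1.74 CPM (log2 fold change −2.59). Kcnip3, which modulates such channels, also fell (−1.65). Among calcium channel genes the auxiliary subunits Cacng4 (−2.27), Cacna2d2 (−2.0) and Cacng3 (−1.95) led. The word was present in 7 of the 32 potassium channel UTRs, of which 6 genes were lower, and in 5 of the 21 calcium channel UTRs, all of them lower. Over all genes with the word 56.3% were lower and 20.5% higher. The word was picked by these same fold changes, so its counts in the lists here and below are a description only. The list of HCN and background channels was mixed, 8 higher and 10 lower of 20, and Kcnk3, which sets resting potential, rose from 18.7 to 73.2 CPM.

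Receptors and scaffolds of the synapse followed. Of 17 AMPA, NMDA and kainate receptor genes 13 fell and 2 rose (median log2 fold change −0.47), and of 14 GABA receptor genes 8 fell and 4 rose (−0.47). Of 25 postsynaptic scaffold genes 19 fell and 3 rose (−0.42). Dlg2, the scaffold PSD-93, measured 770, 817, 839 and 810 CPM with the empty vector and 106, 101, 106 and 97.9 CPM with the 2-mutation hairpin. No other group came near these levels, since the unmutated and 5-mutation hairpins were at 785 and 470 CPM (log2 fold change against the empty vector −2.98 ± 0.04, edgeR adjusted p = 1.86e-22). Grm5, a metabotropic glutamate receptor, measured 441, 523, 515 and 508 CPM with the empty vector and 97.0, 100, 105 and 98.9 CPM with the 2-mutation hairpin. It was low in each of these libraries (log2 fold change −2.31 ± 0.07, edgeR adjusted p = 1.75e-15).

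Further members of these lists showed smaller falls. The NMDA receptor genes Grin3a (−2.01) and Grin2a (−1.31) fell, as did the scaffold genes Shank1 (−1.61), Dlgap1 (−1.06) and Shank3 (−0.97). Of the receptor genes above, 6 of 17 for glutamate and 5 of 14 for GABA hold ATGACAA in the 3′ UTR, and 5 and 4 of those were lower. The 5 scaffold genes with the word, among them Camk2b, Dlg2, Shank1 and Shank3, all fell, where 56.3% of all genes with the word were lower. Of 36 genes of synaptic vesicle release 21 fell and 9 rose, with the active zone gene Erc2 (278 to 52.7 CPM, log2 fold change −2.40) and the complexin gene Cplx2 (−2.39) lowest, and Rims3 at 1.47. Erc2 holds 3 matches of the word. Among 35 synaptic adhesion genes 17 fell and 11 rose. Against the unmutated and the 5-mutation hairpin, 21 and 18 of these adhesion genes were higher with the 2-mutation hairpin and 10 and 9 lower.

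**Figure D4:**
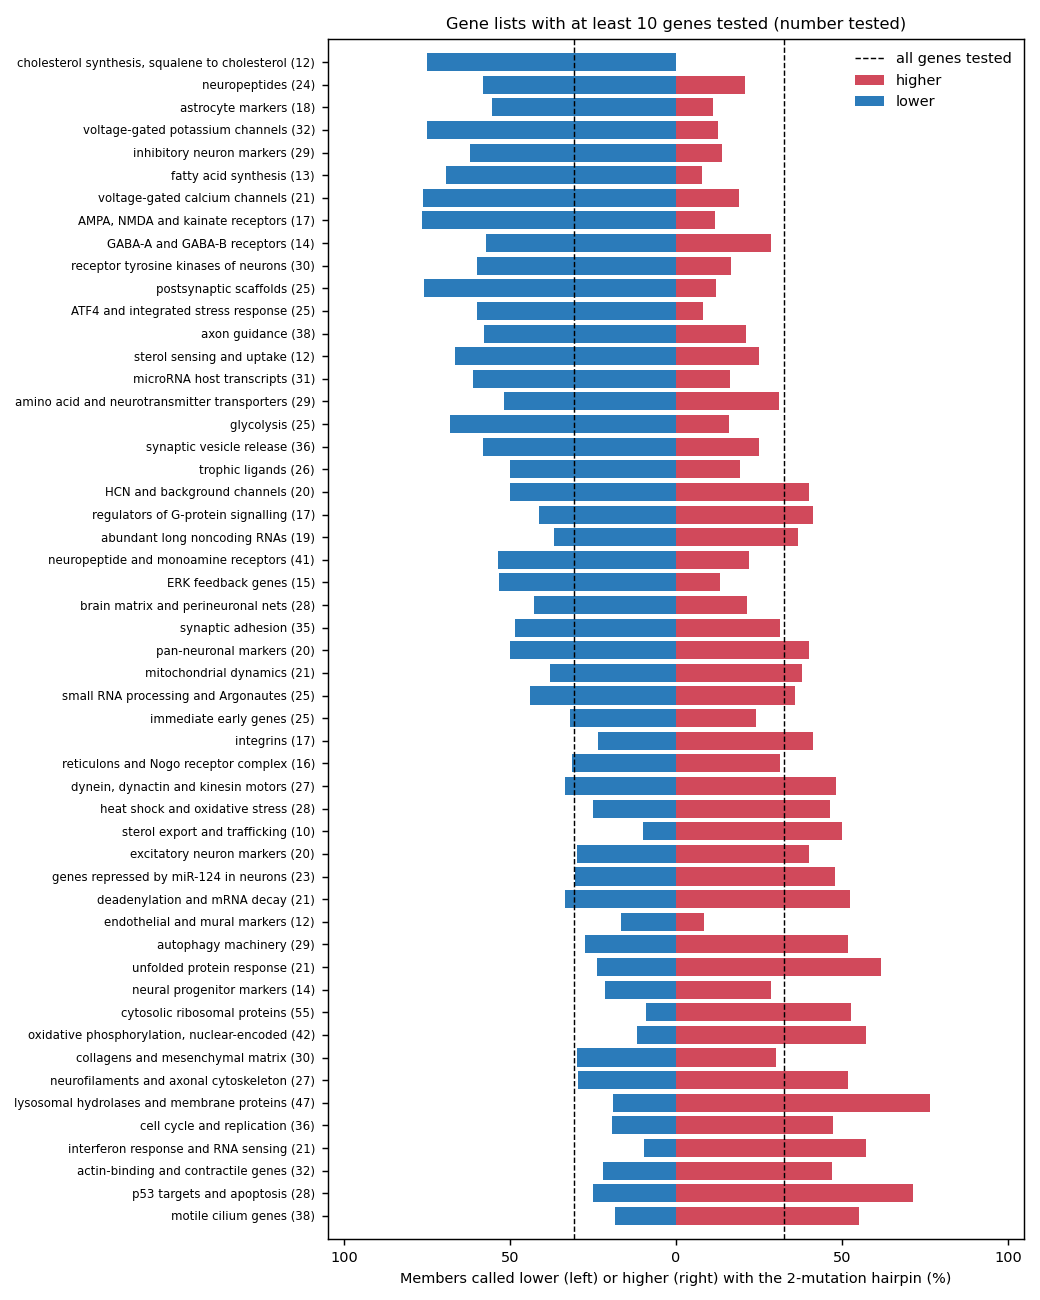
Percent of tested members called higher (right) and lower (left) with the 2-mutation hairpin against the empty vector, for the 52 lists with at least 10 tested genes (vertical axis). Dashed lines mark 32.5% higher and 30.8% lower over all genes, and the mevalonate list is not shown because it has 8 genes.

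Markers of neuron classes were unequally affected. Of 29 inhibitory neuron markers 18 fell and 4 rose (median log2 fold change −0.57), and their summed level was 1017 to 1266 CPM with the 2-mutation hairpin and 1728 to 2033 CPM with the empty vector. With the replicate number as a block, 9 rather than 4 of them were called higher. Besides Gad2, Sst (somatostatin) measured 72.0, 65.6, 66.5 and 70.2 CPM with the empty vector and 16.3, 17.3, 19.9 and 17.6 CPM with the 2-mutation hairpin. The groups did not overlap (log2 fold change −1.95 ± 0.11, edgeR adjusted p = 7.89e-11). Pvalb (parvalbumin), a marker of fast-spiking interneurons, was at 1.51 CPM in the empty-vector and 0.0782 CPM in the 2-mutation group, the latter a level of only a few reads per library. The word was present in 7 of these genes, among them Gad1, Gad2, Calb1 and Erbb4, and all 7 were lower. Over all genes with the word 56.3% were lower, and the word was picked by these same fold changes. The unmutated and 5-mutation hairpins had medians of −0.98 and −1.24 for the list against the same empty-vector libraries.

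Markers of excitatory neurons went both ways: of 20, 8 were higher and 6 lower, and their summed level was 2731 to 2830 CPM with the 2-mutation hairpin and 3229 to 3594 CPM with the empty vector. Mef2c, an activity-regulated transcription factor, went from 935 ± 56.8 to 323 ± 12.6 CPM (log2 fold change −1.53), while Camk2a, the kinase of excitatory synapses, fell by 1.07 on the log2 scale. Neurod1, a transcription factor of young excitatory neurons, measured 19.7, 23.3, 23.3 and 24.3 CPM with the empty vector and 85.1, 82.6, 82.1 and 89.4 CPM with the 2-mutation hairpin. It was high only in the 2-mutation group, the other hairpins being at 27.6 and 19.1 CPM (log2 fold change against the empty vector 1.90 ± 0.07, edgeR adjusted p = 1.33e-15). Tbr1, of deep-layer cortical neurons, rose by 1.03. Of 24 neuropeptide genes 14 fell and 5 rose, with a median of −0.84, and 11 were lower than in all 3 other groups. The summed level of the neuropeptide genes was 1175 to 1223 CPM with the 2-mutation hairpin and 1078 to 1180 CPM with the empty vector. Of 41 receptors of neuropeptides and monoamines 22 fell and 9 rose, among them the delta opioid receptor gene Oprd1 (−2.15), while the nociceptin receptor gene Oprl1 rose (1.0). The summed level of these receptor genes was higher, 1219 to 1279 CPM with the 2-mutation hairpin and 1004 to 1106 CPM with the empty vector.

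Activity and growth-factor signalling genes were counted against the empty vector and against the other hairpins. Of 25 immediate early genes, the first to respond to neuronal activity, 6 were higher and 8 lower than with the empty vector. Without empty-vector replicate 4 the counts were 6 and 5. Against the unmutated hairpin none was higher and 15 were lower, and against the 5-mutation hairpin 4 were higher and 16 lower. Egr3, a transcription factor of this class, measured 49.2, 50.5, 52.3 and 51.2 CPM with the empty vector and 12.4, 9.30, 10.1 and 12.0 CPM with the 2-mutation hairpin. All hairpin libraries were low, and the log2 fold change was −2.21 ± 0.07 (edgeR adjusted p = 3.30e-17). Of 15 genes of ERK output and feedback, 8 were lower and 2 higher than with the empty vector, and 12 were lower and 1 higher than with each of the other hairpins. Spred1, an inhibitor of ERK signalling with a match of the word, went from 115 to 36.5 CPM (log2 fold change −1.66). The ETS factor gene Etv1 fell from 51.2 to 14.2 CPM (−1.85). Dusp5, a phosphatase of nuclear ERK, rose from 2.72 to 9.08 CPM (1.75). Of 30 receptor tyrosine kinase genes of neurons 18 fell and 5 rose against the empty vector, 11 were lower and 4 higher than with the unmutated hairpin, and 11 were lower and 5 higher than with the 5-mutation hairpin, with Met lowest among those described and Ephb2 at −1.42.

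**Figure D5:**
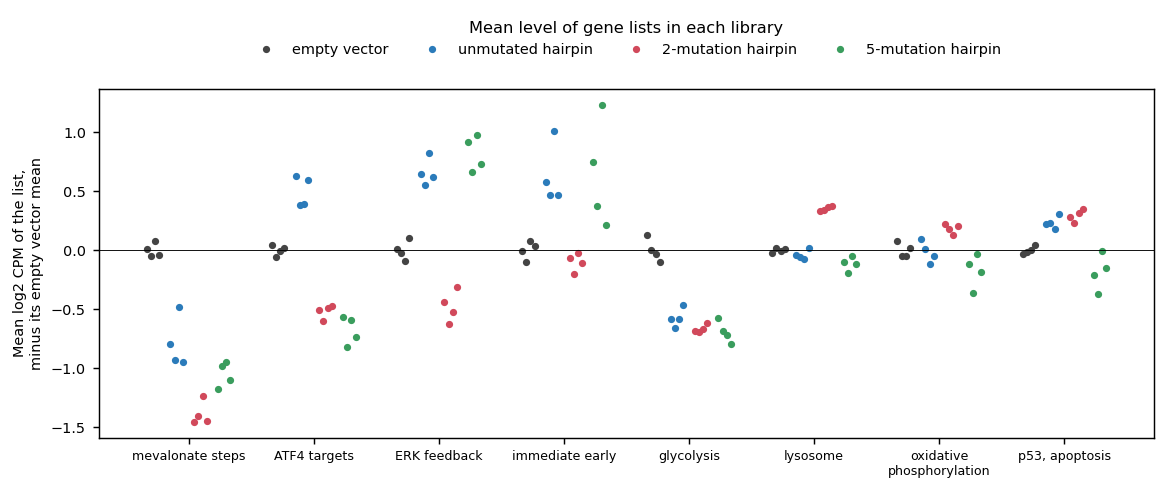
Mean log2 CPM of 8 gene lists minus the empty-vector mean (vertical axis) in each of the 16 libraries by group (horizontal axis). In the 2-mutation libraries the mevalonate genes lie between −1.46 and −1.24 and the lysosomal genes between 0.33 and 0.38, and the ERK feedback genes lie between −0.62 and −0.31 where the unmutated hairpin has 0.55 to 0.82.

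Genes of the integrated stress response, which the transcription factor ATF4 drives when translation initiation is restrained, were lower in 15 and higher in 2 of 25 (median log2 fold change −0.40). Without 2-mutation replicate 1 or 4 or empty-vector replicate 2, 1 was higher. Asns, the asparagine synthetase gene of this response, measured 212, 190, 197 and 198 CPM with the empty vector and 60.6, 59.0, 60.2 and 56.2 CPM with the 2-mutation hairpin. The groups were far apart (log2 fold change −1.76 ± 0.06, edgeR adjusted p = 5.58e-17). Against the unmutated hairpin 23 of the 25 were lower and 1 higher, whereas against the 5-mutation hairpin 8 were lower and 12 higher. Of 21 genes of the unfolded protein response, which act in the endoplasmic reticulum, 13 rose and 5 fell, with the co-chaperone gene Dnajc3 at 0.83. Of 28 genes of apoptosis and p53 output, 20 rose and 7 fell (median 0.46). They included Ei24 (1.01) and Pmaip1 (0.99), which promote cell death, and Bcl2 (1.34), which opposes it.

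Interferon response and RNA sensing genes were mostly low in these cultures, and 12 of 33 listed did not pass the filter. Of the 21 tested, 12 rose and 2 fell. Oasl2, an interferon-induced gene, measured 0.0287, 0, 0.0221 and 0.120 CPM with the empty vector and 1.39, 1.04, 1.65 and 1.40 CPM with the 2-mutation hairpin. Mx1, another such gene, measured 0.0287, 0.179, 0.0883 and 0.0480 CPM with the empty vector and 1.24, 1.27, 0.870 and 1.07 CPM with the 2-mutation hairpin. The groups did not overlap in either gene, but the empty-vector values rest on few reads, so no fold is given. Stat2, which transmits the interferon signal, fell by 0.67 on the log2 scale. The list had 8 members higher and 0 lower than in all 3 other groups, against 19.7 and 17.8% of all genes. A gene needed counts in only some libraries to pass the filter. Genes near 0 with the empty vector, such as Oasl2 and Mx1, could thus enter through a group where they were high. The counts of rises in this list are therefore a description only.

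Lysosomal genes were mostly higher. Of 47 lysosomal hydrolase and membrane protein genes 36 rose and 9 fell (median log2 fold change 0.32), and 28 were higher than in all 3 other groups. Aga, the aspartylglucosaminidase gene, measured 1.44, 1.43, 1.44 and 1.51 CPM with the empty vector and 8.68, 8.53, 10.3 and 8.31 CPM with the 2-mutation hairpin. All 4 hairpin libraries were high (log2 fold change 2.62 ± 0.12, edgeR adjusted p = 2.48e-14). Npc1, which moves cholesterol out of the lysosome, rose by 0.80, and Lipa and Man2b2 are described above. Atp6v0d1, a subunit of the proton pump, fell by 1.26. Of 29 autophagy genes 15 rose and 8 fell. In the top expression band of all genes 44.2% were higher and 36.6% lower, and in the next 49.9 and 30.9%. A pair of genes of the initiation complex went apart: Ulk1, the kinase that starts autophagy, rose from 93.9 to 214 CPM (log2 fold change 1.19). Its partner Atg13, which holds the word, fell by 1.34.

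Energy metabolism was divided. Of 25 glycolysis genes 17 fell and 4 rose (median log2 fold change −0.30), and none holds ATGACAA. Gapdh, often used as a reference gene, measured 1511, 1386, 1283 and 1302 CPM with the empty vector and 488, 465, 436 and 492 CPM with the 2-mutation hairpin. The groups did not overlap (log2 fold change −1.54 ± 0.06, edgeR adjusted p = 9.07e-16). The unmutated and 5-mutation hairpins had medians of −0.48 and −0.56 for the list. Of 42 nuclear genes of oxidative phosphorylation 24 rose and 5 fell (median 0.26), and 3 fell without 2-mutation replicate 3 or empty-vector replicate 1 or 4. With only the 8 libraries in the model 9 fell. Of 55 genes of cytosolic ribosomal proteins 29 rose and 5 fell (0.21). Members of both lists moved little, between −0.80 and 0.73 on the log2 scale. The mitochondrial regulator gene Ppargc1a fell by 1.65.

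Cytoskeletal genes went both ways. Of 32 actin-binding and contractile genes 15 rose and 7 fell (median log2 fold change 0.41). Vcl (vinculin) went from 26.3 to 87.2 CPM (1.73) and Flna (filamin A) from 155 to 398 CPM (1.36), while Actg1 (gamma actin) fell from 1405 to 532 CPM (−1.40) and Myh10, a non-muscle myosin, from 435 to 109 CPM (−2.0). Of 27 genes of neurofilaments and the axonal cytoskeleton 14 rose and 8 fell, and 23 were higher and 3 lower than with the unmutated hairpin. Prph (peripherin) fell by 1.78, and Tuba1b and Map1b rose by 0.88 and 0.48. Of 38 motile cilium genes 21 rose and 7 fell (median 0.59), led by Dnah1 (2.67) and Ccdc40 (2.40). The summed level of these cilium genes went the other way, 530 to 544 CPM with the 2-mutation hairpin and 678 to 741 CPM with the empty vector. Gm35823 overlaps Dnah1 on the opposite strand. Ependymal and choroid plexus markers, of cells that carry motile cilia, could be tested for 9 of 12 genes, 2 of them higher and 2 lower. Their summed level was 17.3 to 68.9 CPM with the 2-mutation hairpin and 10.7 to 37.8 CPM with the empty vector, and their part in the cilium result was not tested.

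Other lists moved in both directions. Of 38 axon guidance genes 22 fell and 8 rose, with the ephrin gene Efnb3 at −1.22 and the semaphorin gene Sema3c at 1.83. Of 36 cell cycle genes 17 rose and 7 fell, with the helicase gene Mcm6 at 1.45 and the cell cycle inhibitor gene Cdkn1b at −0.94. Against the 5-mutation hairpin the direction was the other way, 6 higher and 16 lower. Of 29 transporters of amino acids and transmitters 15 fell and 9 rose, with the GABA transporter gene Slc6a11 at −1.87 and the chloride exporter gene Slc12a5 at 0.81. Of 17 regulators of G-protein signalling 7 rose and 7 fell, Rgs9 at 1.62 and Rgs17 at −2.31. Among 19 long noncoding RNAs 7 rose and 7 fell, with Peg13 rising from 168 to 575 CPM (1.78) and Tug1 falling from 257 to 92.0 CPM (−1.48). Morc2a overlaps Tug1 on the opposite strand.

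Markers of other cell types were also measured, astrocyte markers at summed levels near those of the inhibitory neuron markers. Of 18 tested astrocyte markers 10 fell and 2 rose (median log2 fold change −0.65), and their summed level was 1207 to 1490 CPM with the 2-mutation hairpin and 1527 to 1858 CPM with the empty vector. Clu (clusterin), which neurons also make, rose from 72.1 to 180 CPM (1.32). Neural progenitor markers rose in 4 and fell in 3 of 14, and their summed level was 282 to 400 CPM against 150 to 196 CPM. The intermediate filament genes Vim (60.7 ± 7.80 to 171 ± 30.6 CPM) and Nes (20.7 ± 1.62 to 65.2 ± 15.9 CPM) led that rise, and replicate 4 was the highest 2-mutation library for each. Of 17 oligodendrocyte markers 9 could be tested, of 15 microglia markers 6, of 16 endothelial and mural markers 12 and of 12 fibroblast markers 9. The summed levels of those lists overlapped between the groups, at 57.8 to 65.9 against 59.4 to 71.5 CPM for oligodendrocyte and 23.4 to 25.9 against 21.6 to 25.1 CPM for microglia markers. Ranges for endothelial markers were 12.1 to 16.2 against 12.7 to 17.2 CPM, and for fibroblast markers 40.4 to 78.9 against 44.3 to 58.4 CPM, with the 2-mutation hairpin first. With the replicate number as a block, the fibroblast and smooth muscle genes Col1a1, Col3a1 and Tagln were called higher (edgeR adjusted p = 0.00626, 0.00113 and 0.0209), and without it they were not. The part of these other cell types in the results above was not tested.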

How the data were processed

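The authors deposited raw counts per gene, whole numbers for 55335 genes in 16 libraries. Per the submitters' processing notes, reads were aligned to GRCm38.p6, and the tools named are STAR 2.7.2b, cutadapt 1.15, Trim Galore 0.6.0, bcl2fastq 2.20.0.422, featureCounts and edgeR. The strand setting, multi-mapping rule and annotation release are not given in the sources used here, and counts were 0 on the 37 mitochondrial genes. Names, positions and UTRs came from GENCODE vM21 (54587 IDs matched with version, 55154 without), and microRNAs from RefSeq.

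The counts were filtered with filterByExpr (19479 genes), TMM-scaled and fitted with edgeR 4.0.16 (R 4.3.3, limma 3.58.1) by robust quasi-likelihood, 1 coefficient per group over all 16 libraries. CPM were computed from the deposited counts. Calls use a Benjamini-Hochberg adjusted p below 0.05. Word and seed scores (log2 CPM with a prior count of 2, longest 3′ UTR of at least 50 nucleotides) used Python 3.11.15, numpy 2.4.6 and pandas 2.3.3, and plots matplotlib 3.10.9. The steps were tested on simulated counts.

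Named genes are the 20 highest and 20 lowest log2 fold changes among called genes whose libraries did not overlap, whose log2 CPM averaged 2 or more and whose symbol is no clone name. They also include, from each of 59 gene lists, at most 4 members, those lowest in p, and the 10 genes furthest above and the 10 furthest below all 3 other groups. The last are all members of the small RNA and cholesterol lists and the 6 lowest genes with the first-ranked word. Gm26917, Stard4, genes named as overlapping, and list members named for holding the word (Gad1, Erbb4, Camk2b) were chosen after their values were seen. A few genes chosen by these rules are left out of the text. The comparison, lists and rules were chosen with earlier results of these data known.

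Replicates with the same number deviated together (correlations of deviations from the group means 0.30, 0.26, 0.35 and 0.32 for replicates 1 to 4), and each 2-mutation library correlated best with the empty-vector library of its own number. The pairing rests on these data and not on the labels. Alternatives were DESeq2 1.42.0, its size factors, no filter, protein-coding genes only, no Gm26917 and Gm42418, only the 8 libraries, the replicate block, each library left out, and for scores an 8-base match, no UTR terms, UTRs of at least 300 nucleotides and only well expressed genes.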

Additional observations from a re-analysis of the deposited data

Results flagged for a closer look

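Of 158 groups of 4 values checked, 12 (7.6%) held a library far from the other 3, where chance gives about 1 in 20. With the 2-mutation hairpin these were Dynlt3 in replicate 3 (7.95 CPM, others 6.53 to 6.74), Hk2 in replicate 4 (2.34 CPM), Extl1 in replicate 3 (2.75 CPM), and Rgs13 and Rgs2 in replicate 1 (27.1 and 298 CPM). With the empty vector they were Rreb1, Flnc and Kcnk3 in replicate 2 (25.0, 1.34 and 18.2 CPM). Among the scores they were let-7 in empty-vector replicate 4 (−0.0480), miR-132 in empty-vector replicate 1 (0.00346), miR-17 in 2-mutation replicate 3 (−0.00633) and ATGACAA in empty-vector replicate 1 (0.113). None of these genes lost its call when that library was left out.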

How the results depend on the processing

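The count of genes called between the 2-mutation hairpin and the empty vector was 12324 as reported, 11733 to 12066 with a library left out, 12967 without the filter on low counts and 10534 with protein-coding genes only, where fewer genes were tested. The other alternatives gave counts between these. With the replicate block it was 12724, of which 12261 were also called as reported, and neither this count nor those against the other hairpins moved by over 1.5 times under any alternative. Without Gm26917 and Gm42418, 48.2% of the calls were higher, against 51.4% as reported. Of 4373 values of 292 named genes under the alternatives, 4335 kept direction and call, 25 lost the call, 13 gained it and 0 reversed. The lost calls were in Esam, Hsp90aa1, Hspa8, Kl, Pmvk and Rarres2.

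The coefficient of ATGACAA was −0.459 without the UTR terms and −0.432 over genes whose log2 CPM averaged 2 or more. Without the UTR terms 27 microRNA families scored lower and 0 higher. Among families whose libraries did not overlap as reported, the scores that reversed without those terms were miR-9 (−0.0663), miR-9-3p (−0.0770), miR-125 (−0.0208), miR-128 (−0.0403), miR-132 (−0.0622), miR-137 (−0.0661), miR-138 (−0.0276) and miR-22 (−0.0454). With the 8-base match the reversed scores among these families were miR-132 (−0.0512) and miR-21 (0.00120). The cause was not tested. Of 59 lists, 2 changed their majority under an alternative, the immediate early genes and the endothelial markers. At these depths genes under about 1 CPM, such as Pvalb, Oasl2 and Mx1, rest on few reads.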
